A study of Mus musculus with 10 samples.

Results

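The genes described here carry glucose into the cell and break it down to pyruvate and lactate, together with branches and controls of that route. They were 36 gene symbols chosen by name: glucose transporters, the enzymes from hexokinase to lactate dehydrogenase, lactate transporters, pyruvate dehydrogenase and its kinase Pdk1, the pentose phosphate pathway, and genes of hypoxia control. All 36 symbols were found among the 55414 genes of the expression table. Aldoa has 2 gene identifiers there, so the members were 37 entries, and 36 of them were among the 20000 genes with the highest mean level, which were tested. The entry left out was Ldhb.

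The cells were mpkCCD cells, an immortalized principal cell line of the mouse kidney collecting duct on a C57BL/6 background, in which loss of Camk2d, the gene for a calcium/calmodulin-dependent protein kinase, was compared with intact Camk2d. Every sample had 7 days of the vasopressin V2-receptor agonist dDAVP at 0.1 nM, in complete medium and then in a simple medium without serum but with dexamethasone, so no sample shows these genes without dDAVP. The 5 intact samples were the parental line and 2 samples each of intact clone 1 and intact clone 2, which makes 3 cell lines. Intact clones 1 and 2 share the transfection step with the KO clones, and the parental line does not. The 5 KO samples were KO 1 to KO 5, each a clone grown from 1 cell after transfection with Cas9, where the study's supplement gives KO 1 and KO 2 the guide for exon 8 and KO 3 to KO 5 the guide for exon 9. Clones can differ from each other in more than Camk2d, and nothing in the labels says if both samples of an intact clone were cultured separately, so p-values measure the spread between these samples, part of which may be technical. Levels are TPM, a measure of transcript abundance that divides reads by gene length and gives all samples one common total. TPM keep no sequencing depth, so the depth is unknown and no counting interval is given.

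The labels were checked on 2 points. Camk2d was at 123 to 141 TPM in intact samples and 19.8 to 29.8 TPM in KO clones, a log2 difference of -2.39 (limma, adjusted p = 1.2e-06), and it was the only gene of the 20000 past the adjusted threshold (0.00500%). Of 10 principal cell markers 8 had a mean of at least 1 TPM, with Aqp2 the highest, while Elf5 and Scnn1b were under 1 TPM. The summed TPM of those markers was 5064 to 7041 in intact and 2347 to 5275 in KO samples, a difference whose part in the results below was not tested. Intercalated cell markers summed to 1.88 to 3.49 TPM in intact and 1.00 to 7.11 TPM in KO samples, with Slc4a1, Slc26a4 and Foxi1 under 1 TPM. Thick ascending limb markers were listed at 0 in every sample, and fibroblast and endothelial markers summed to at most 0.49 TPM. Proximal tubule markers summed to 7.54 to 13.0 TPM in intact and 6.53 to 15.1 TPM in KO samples, of which only Lrp2 reached 1 TPM, and macrophage markers to 4.20 to 5.72 TPM and 3.62 to 9.38 TPM, of which only Cd68 did. In bulk RNA, fewer cells of a type and less RNA per cell cannot be told apart.

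Glucose enters cells through facilitative transporters of the Slc2a family and is trapped by hexokinase as glucose 6-phosphate. Phosphofructokinase 1 commits the sugar to glycolysis, pyruvate kinase makes the last ATP and pyruvate, and pyruvate is either reduced to lactate by lactate dehydrogenase and exported by monocarboxylate transporters, or oxidized in mitochondria through pyruvate dehydrogenase. Hif1a, the oxygen-regulated factor whose activity is limited by the Egln prolyl hydroxylases, induces many of these genes.

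One isozyme made up most of the transcript of nearly every step, so the pathway in these cells can be read as a short list. Slc2a1 held 98.8% ± 0.415 of the TPM of the 3 member glucose transporters in intact samples (SD, n = 5), Hk1 held 94.6% ± 0.4 of the hexokinases, and Aldoa held 96.5% ± 0.568 of the aldolases. Ldha, the muscle-type subunit, was at 1039 ± 41.6 TPM in intact samples, while Ldhb, the heart-type subunit, was at most 0.09 TPM in any of the 10. Slc16a1 (MCT1), at 99.8 ± 8.53 TPM in intact samples, stood against 0.178 ± 0.136 TPM for Slc16a3 (MCT4), the other lactate transporter among the members. Among the steps whose shares are plotted, phosphofructokinase 1 had the most even mixture, with 63.7% ± 2.09 from Pfkl, 31.0% ± 1.95 from Pfkp and 5.29% ± 0.205 from Pfkm. Pkm held 84.5% ± 2.35 of the pyruvate kinase TPM and Pklr, the liver and red cell gene, which is no member but sits at the same step, held 15.5% ± 2.35. The mean shares over the KO clones were within 2 percentage points of these at every step, as the plot of isozyme shares shows. The enolase share counts Eno1, Eno2 and Eno3, and with Eno1b, a near copy of Eno1, counted as well, Eno1 held 78.3% ± 0.294 and Eno1b 15.9% ± 0.244 in intact samples. Single samples varied more, from 59.2% to 65.6% for Pfkl, 81.7% to 89.0% for Pkm and 6.26% to 10.2% for Eno3 among the enolases without Eno1b over the 10 samples.

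**Figure D1:**
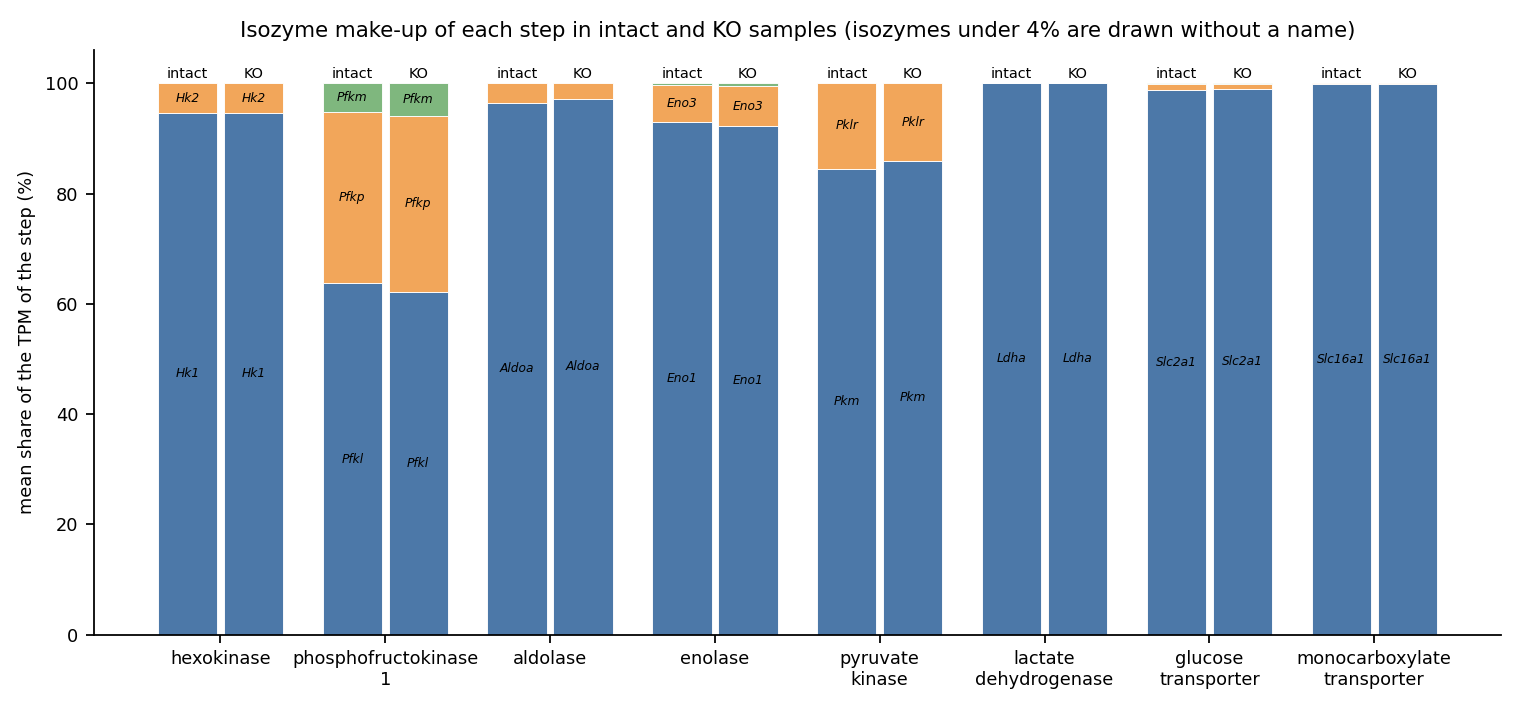
Mean share of the TPM of each step (vertical axis, %, from 0) taken by each isozyme, in intact (left bar of each pair, n = 5) and KO samples (right bar, n = 5), with the most abundant isozyme in blue at the bottom. Hk1, Aldoa, Eno1, Pkm, Ldha, Slc2a1 and Slc16a1 each held at least 84.5% of their step in intact samples (enolase without Eno1b), and Pfkl held 63.7% of phosphofructokinase 1 in intact and 62.1% in KO samples.

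The sequences before the transcription starts are shown for genes on which the levels and differences turn: Ldha against Ldhb for the isozyme contrast, Pfkm and Pfkp for the step with the smallest p-values, and Slc16a1 for the member that varied most among cell lines by the F-test. They are RefSeq promoter windows on GRCm38.p6, the bases before the start read 5′ to 3′ on the gene's strand, cut where an annotated exon of the gene begins. Capitals mark ACGTG and GCGTG, the cores of hypoxia response elements, CACGTG, the E-box, which contains ACGTG on both strands, and TGACGTCA, the cyclic AMP response element, each searched on both strands. The window of Pfkl overlaps an annotated exon of that gene at its far end and is not shown.
Ldha, chr7:46845554-46845803, plus strand: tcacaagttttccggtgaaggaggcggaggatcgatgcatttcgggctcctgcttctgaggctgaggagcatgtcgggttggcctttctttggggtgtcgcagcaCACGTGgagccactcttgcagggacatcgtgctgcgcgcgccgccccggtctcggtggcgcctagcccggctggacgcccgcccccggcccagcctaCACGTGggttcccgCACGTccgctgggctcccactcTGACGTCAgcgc
Ldhb, chr6:142507958-142508207, minus strand: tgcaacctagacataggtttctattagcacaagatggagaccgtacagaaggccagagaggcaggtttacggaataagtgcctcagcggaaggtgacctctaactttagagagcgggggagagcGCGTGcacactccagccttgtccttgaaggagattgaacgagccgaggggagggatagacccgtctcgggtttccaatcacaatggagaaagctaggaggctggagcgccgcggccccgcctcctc
Pfkm, chr15:98108221-98108465, plus strand: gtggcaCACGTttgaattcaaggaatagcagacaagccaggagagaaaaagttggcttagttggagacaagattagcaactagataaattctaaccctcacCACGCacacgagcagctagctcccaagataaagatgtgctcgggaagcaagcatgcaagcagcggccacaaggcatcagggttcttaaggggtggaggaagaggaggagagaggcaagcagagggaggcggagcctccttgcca
Pfkp, chr13:6648778-6649021, minus strand: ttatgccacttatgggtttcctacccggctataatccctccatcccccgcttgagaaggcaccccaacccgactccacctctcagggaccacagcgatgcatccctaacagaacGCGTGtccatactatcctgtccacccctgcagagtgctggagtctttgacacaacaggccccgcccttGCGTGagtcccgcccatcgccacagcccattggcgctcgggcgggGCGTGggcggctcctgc
Slc16a1, chr3:104638414-104638663, plus strand: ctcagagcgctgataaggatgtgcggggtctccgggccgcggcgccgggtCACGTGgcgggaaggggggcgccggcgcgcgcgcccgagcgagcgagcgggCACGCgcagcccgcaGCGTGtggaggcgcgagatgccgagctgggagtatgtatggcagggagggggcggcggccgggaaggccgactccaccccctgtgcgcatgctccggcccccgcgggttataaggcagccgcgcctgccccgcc

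Among those windows of 250 bases, Ldha had 2 E-boxes, a further ACGTG and the TGACGTCA, Slc16a1 had 1 E-box and 2 GCGTG, Pfkp had 3 GCGTG, Pfkm had 1 ACGTG and 1 GCGTG, and Ldhb had 1 GCGTG. A window was found for 34 of the 36 symbols, and 27 of them (79.4%) held ACGTG or GCGTG, against 38.6% of all 32817 RefSeq windows of that length and 56.5% of the 11951 windows of genes with a mean of at least 1 TPM. These shares are not counted alike, since each member gave 1 window and other genes gave every RefSeq start. The counts use all 250 bases with exons not cut out, and own exons held 250 bases for G6pdx, 208 for Pkm and 193 for Aldoa. The start used lay 8661 bases from the main GENCODE start for Aldoa and 1021 for Vegfa. Median GC content was 60.8% in the members, 52.4% in all windows and 60.0% in those of expressed genes. An E-box was in 6 of the 34 (17.6%) and in 8.33% of the windows of expressed genes, and TGACGTCA was in 1, that of Ldha, and in 2.61% of the windows of expressed genes. These matches describe letters only. Ldhb, nearly silent here, and Pfkl, at 260 TPM in intact samples, each had a single GCGTG.

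Mean levels spanned more than 4 orders of magnitude, from Ldhb to Pkm. The 17 member enzymes from hexokinase to lactate dehydrogenase summed to 7290 ± 133 TPM in intact samples (SD, n = 5; 7077 to 7440) and 7783 ± 556 TPM in KO clones (7052 to 8240), which is 0.729% and 0.778% of all TPM. The ranges overlapped, and the ratio of the means was 1.07. The KO clones split, with KO 1, KO 2 and KO 5 at 8215, 8240 and 8087 TPM, above every intact sample, while KO 3 and KO 4 were at 7321 and 7052 TPM.

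**Figure D2:**
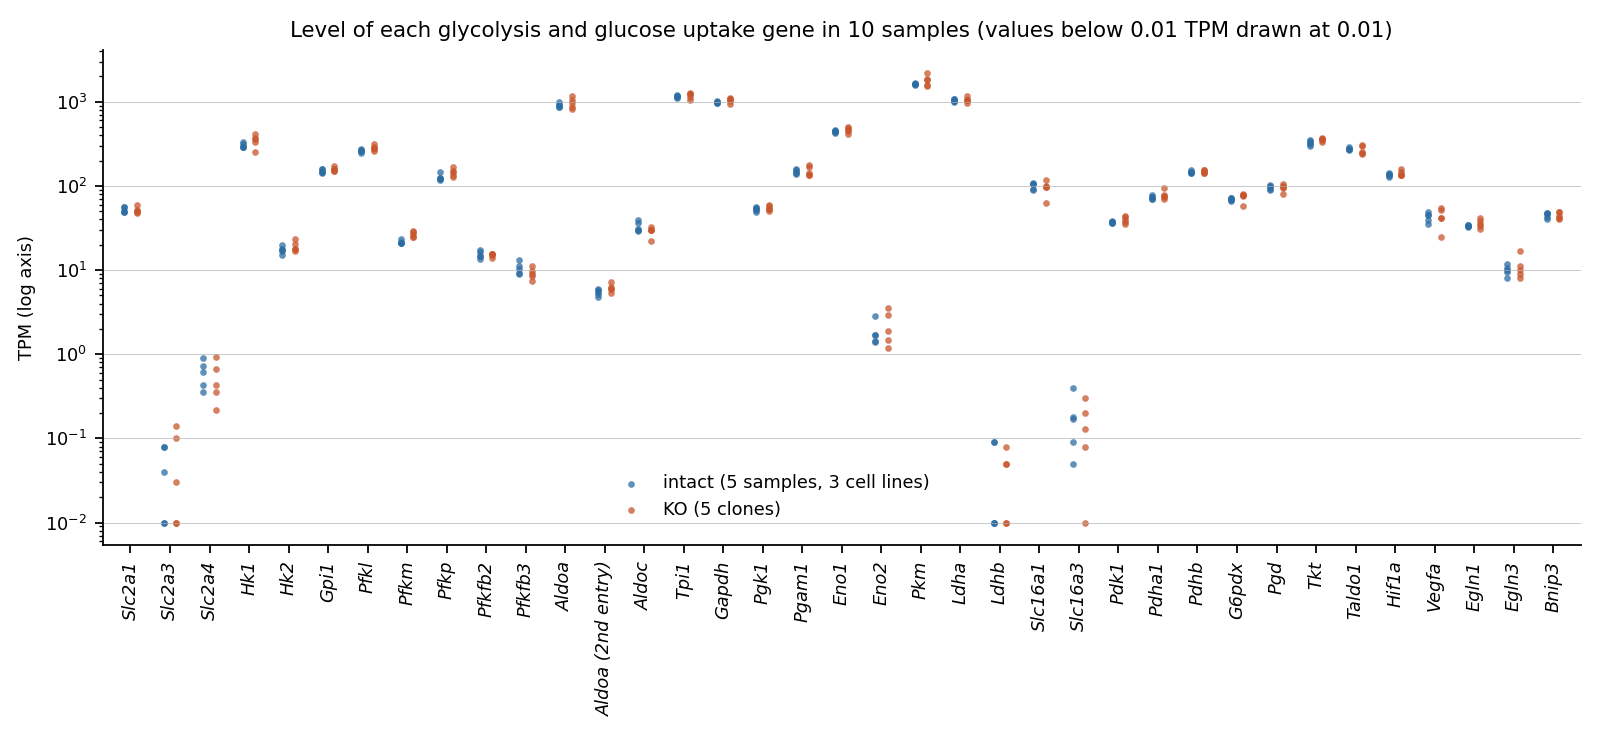
TPM of each of the 37 member entries (log axis) in each intact sample (blue, n = 5) and KO clone (orange, n = 5), in pathway order, with values below 0.01 drawn at 0.01. Pkm, Tpi1, Ldha, Gapdh and Aldoa were the most abundant, at 827 TPM or above in every sample, and Slc2a3, Slc2a4, Ldhb and Slc16a3 stayed under 1 TPM in all samples.

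In the comparison of KO with intact samples, no member passed the adjusted threshold of limma with Benjamini-Hochberg adjustment over 20000 genes, where 0.00500% of all genes did. The smallest limma adjusted p of a member was 0.378, for Pfkm. At an unadjusted p under 0.05, 4 of the 36 tested members were higher in KO, against 4.53% of all genes, and 0 were lower, against 2.46%. These 4 were the 3 genes of phosphofructokinase 1, Pfkm, Pfkp and Pfkl, and Tkt. With 1 mean value per cell line, or with the line as a random effect, 2 of the 4 were left, Pfkm and Tkt, where 2.12% and 2.42% of all genes were higher in KO at that level. By the two-sided exact permutation test 3 of the 36, Pfkm, Pfkl and Tkt, had a p under 0.05, against 7.15% of all genes. The members' log2 differences ran from -0.19 to 0.30 with a median of 0.06, and 25 of 36 were above 0, whereas the median over all genes was 0.02 and 57.3% were above 0. With the samples rescaled by median ratios, 23 members were above 0, their median was 0.03 and only Pfkm stayed at an unadjusted p under 0.05 with KO higher, as did 3.14% of all genes. That scaling also moved the genes with an unadjusted p under 0.05 from 64.7% to 48.4% higher in KO (quantile normalization, 52.4%). Under quantile normalization all 4 members stayed at an unadjusted p under 0.05 with KO higher, as did 3.28% of all genes.

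**Figure D3:**
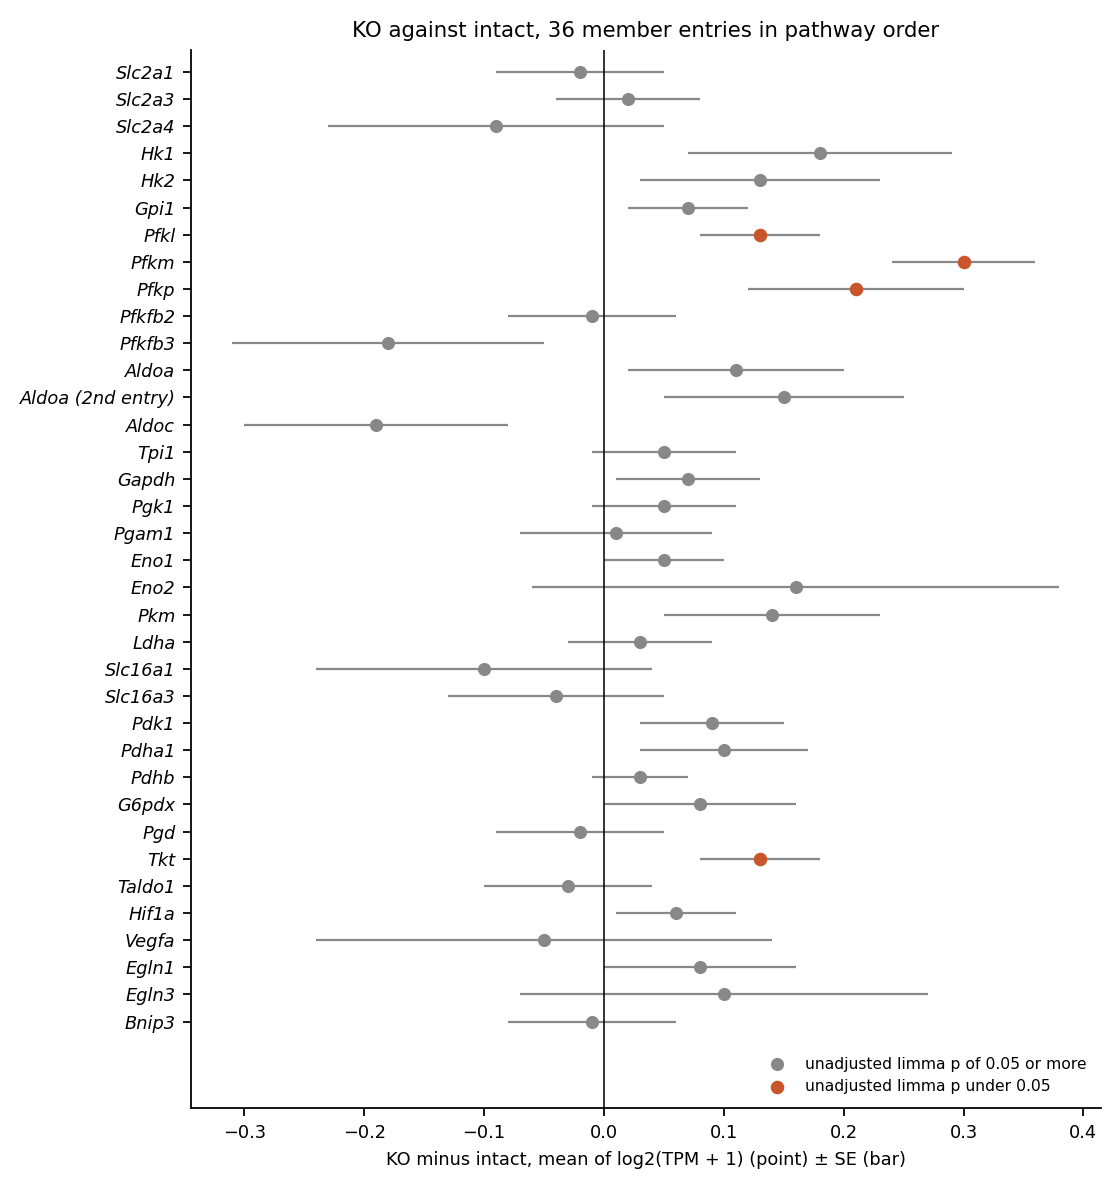
Difference of KO minus intact in mean log2(TPM + 1) (horizontal axis; points, n = 5 against 5) with its limma SE (bars) for the 36 tested member entries, in pathway order from top to bottom. The 4 orange points (Pfkl, Pfkm, Pfkp and Tkt) had an unadjusted p under 0.05, all to the right of 0, and no entry passed the adjusted threshold.

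Phosphofructokinase 1, the committing step of glycolysis, had the only member whose KO and intact samples did not overlap. Pfkm, the muscle-type subunit, was at 23.6 TPM in the parental line, 21.3 and 20.9 TPM in intact clone 1, 21.3 and 20.8 TPM in intact clone 2, and 29.5, 24.8, 25.0, 26.8 and 28.2 TPM in KO 1 to KO 5. The lowest KO clone was above the highest intact sample, the parental line, and KO minus intact was 0.30 ± 0.06 in log2 (SE; limma, adjusted p = 0.378; exact permutation p = 0.00794). That permutation p is the smallest that 5 against 5 samples can give, and it counts both samples of an intact clone as separate, as do the other permutation p-values of 5 against 5 samples. With 1 mean value per cell line, 3 lines against 5, the exact permutation p was 0.0179, the smallest that this design can give. The log2 difference was 0.26 to 0.33 over the 22 alternatives, with adjusted p of 0.256 to 1. Such a lack of overlap with KO higher was seen in 1.20% of all genes. Of the 50-base windows of Pfkm 91.2% occur in no other gene and 8.83% are shared with Gm26513.

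Pfkp, the platelet-type subunit, was at 148 TPM (parental), 123 and 126 TPM (clone 1) and 120.4 and 117 TPM (clone 2) in intact samples and at 170.1, 148, 127, 152 and 136 TPM in KO 1 to KO 5. The parental line lay among the KO clones and the 4 intact clone samples lay below all of them. The groups differed by 0.21 ± 0.09 in log2 (SE), for an exact permutation p of 0.0556 and an adjusted p of 0.685 by limma. Pfkl, the liver-type subunit and the most abundant of the 3, was at 257 TPM in the parental line, 264 and 271 TPM in intact clone 1, 263 and 243 TPM in intact clone 2, and 291, 282, 276, 259 and 313 TPM in KO 1 to KO 5. KO 4 was within the intact range, and the other 4 clones were above it. The log2 difference was 0.13 ± 0.05 (SE), with an adjusted p of 0.69 by limma and an exact permutation p of 0.0397. With 1 mean value per cell line the exact permutation p was 0.196 for Pfkp and 0.0893 for Pfkl. Summed over the 3 genes, the step was at 408 ± 18.1 TPM in intact (380 to 429) and 457 ± 26.6 TPM in KO samples (427 to 491), a ratio of 1.12. The highest intact sample, at 429 TPM in the parental line, was above only KO 3, at 427 TPM.

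The kinases that make fructose 2,6-bisphosphate, the allosteric activator of phosphofructokinase 1, were far lower. Pfkfb2 was at 16.5 TPM (parental), 17.1 and 14.6 TPM (clone 1) and 13.6 and 14.6 TPM (clone 2) in intact samples and at 15.4, 15.0, 14.0, 15.7 and 15.7 TPM in KO 1 to KO 5. The groups overlapped throughout, and KO minus intact was -0.01 ± 0.07 in log2 (SE; limma, adjusted p = 0.993; exact permutation p = 0.921). Pfkfb3 ranged from 9.07 to 13.3 TPM in intact samples, where the parental line was highest, and from 7.45 to 11.3 TPM in KO clones, where KO 5 was lowest. The groups differed by -0.18 ± 0.13 in log2 (SE), for an exact permutation p of 0.206 and an adjusted p of 0.808 by limma.

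At the entry to the pathway, Slc2a1 (GLUT1), the basal glucose transporter, was at 55.9 TPM in the parental line, 50.8 and 56.1 TPM in intact clone 1, 48.6 and 49.6 TPM in intact clone 2, and 59.9, 47.4, 51.4, 50.0 and 48.9 TPM in KO 1 to KO 5. KO 1 held the highest and KO 2 the lowest of the 10 values, and the log2 difference was -0.02 ± 0.07 (SE), with an adjusted p of 0.964 by limma and an exact permutation p of 0.817. Slc2a4 (GLUT4), the insulin-regulated transporter, was at 0.36 to 0.89 TPM in intact and 0.22 to 0.92 TPM in KO samples. Slc2a3 (GLUT3) was at most 0.14 TPM and was listed at 0 in 2 samples. Among 12 other sugar transporters 9 had a mean under 1 TPM, including Slc5a1, a sodium-coupled transporter, at 0.04 TPM or less. The other 3 were Slc45a4, at 93.1 ± 3.88 TPM in intact and 97.1 ± 16.5 TPM in KO samples (SD, n = 5 each), Slc2a8, at 29.7 ± 1.70 and 32.7 ± 3.10 TPM, and Slc37a4, the glucose 6-phosphate transporter, at 27.8 ± 1.22 and 30.7 ± 6.78 TPM. The share given for Slc2a1 is thus of the member transporters and not of all sugar transporters.

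Hk1, which phosphorylates glucose and binds mitochondria, was at 334 TPM (parental), 290.3 and 286 TPM (clone 1) and 294 and 313 TPM (clone 2) in intact samples and at 411, 253, 364, 374 and 337 TPM in KO 1 to KO 5. In 4 of the KO clones it was above every intact sample, and in KO 2 it was the lowest of the 10. KO minus intact was 0.18 ± 0.11 in log2 (SE; limma, adjusted p = 0.769; exact permutation p = 0.19). On leaving out single samples the difference was 0.12 to 0.29, with 0.29 without KO 2 (limma, adjusted p = 0.296). Hk2, the insulin-responsive hexokinase, was at 15.0 to 19.9 TPM in intact and 16.9 to 23.1 TPM in KO samples, and the groups differed by 0.13 ± 0.10 in log2 (SE), for an exact permutation p of 0.206 and an adjusted p of 0.812 by limma. Gpi1, which turns glucose 6-phosphate into fructose 6-phosphate, was at 159 TPM in the parental line, 144 and 158 TPM in intact clone 1, 147 and 148 TPM in intact clone 2, and 172, 160.4, 150.4, 150.0 and 161 TPM in KO 1 to KO 5. KO 1, KO 2 and KO 5 were above every intact sample, KO 3 and KO 4 were within the intact range, and the log2 difference was 0.07 ± 0.05 (SE), with an adjusted p of 0.807 by limma and an exact permutation p of 0.167.

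Below phosphofructokinase, Aldoa, the main aldolase, was at 982 TPM (parental), 857 and 909.9 TPM (clone 1) and 867 and 904 TPM (clone 2) in intact samples and at 1179.9, 1064, 877, 827 and 976 TPM in KO 1 to KO 5. KO 1 and KO 2 were above the intact range, KO 4 was below it, and KO minus intact was 0.11 ± 0.09 in log2 (SE; limma, adjusted p = 0.82; exact permutation p = 0.302). The second Aldoa entry, ENSMUSG00000114515, was at 4.73 TPM in the parental line, 5.82 and 6.02 TPM in intact clone 1, 5.20 and 5.43 TPM in intact clone 2, and 7.12, 5.31, 5.92, 6.03 and 6.33 TPM in KO 1 to KO 5. The groups differed by 0.15 ± 0.10 in log2 (SE), for an exact permutation p of 0.0952 and an adjusted p of 0.781 by limma, and the sum of both entries gave an exact permutation p of 0.302. Aldoc, the brain-type aldolase, was at 29.1 TPM (parental), 39.0 and 36.6 TPM (clone 1) and 29.9 and 30.9 TPM (clone 2) in intact samples and at 32.8, 22.2, 30.1, 30.0 and 29.9 TPM in KO 1 to KO 5. Intact clone 1 was highest and KO 2 lowest, and the log2 difference was -0.19 ± 0.11 (SE), with an adjusted p of 0.769 by limma and an exact permutation p of 0.222, with overlapping groups. It was the lowest difference among the members over all samples, and it was -0.10 without KO 2.

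The enzymes of the lower, ATP-yielding part of glycolysis had log2 differences of 0.01 to 0.16, none with an unadjusted p under 0.05. Tpi1, triose phosphate isomerase, was at 1119.7 TPM in the parental line, 1159 and 1189 TPM in intact clone 1, 1141 and 1158 TPM in intact clone 2, and 1278, 1253, 1144, 1052 and 1242 TPM in KO 1 to KO 5, and KO minus intact was 0.05 ± 0.06 in log2 (SE; limma, adjusted p = 0.889; exact permutation p = 0.444). Gapdh, often used as a reference gene, was at 967 TPM (parental), 1003 and 1025 TPM (clone 1) and 976 and 998 TPM (clone 2) in intact samples and at 1091, 1077, 1012, 932 and 1099.9 TPM in KO 1 to KO 5, and the groups differed by 0.07 ± 0.06 in log2 (SE), for an exact permutation p of 0.183 and an adjusted p of 0.82 by limma. Both followed one pattern among the KO clones, with KO 1, KO 2 and KO 5 above every intact sample and KO 4 below every one. Only 75.3% of the 50-base windows of Gapdh are its own, with windows in 218 other genes, among them Gm13394 at 104 to 125 TPM, so the reads of these copies may not be fully separable.

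Pgk1, phosphoglycerate kinase, was at 55.8 TPM in the parental line, 52.2 and 53.8 TPM in intact clone 1, 48.5 and 54.3 TPM in intact clone 2, and 57.8, 53.6, 51.0, 52.6 and 59.2 TPM in KO 1 to KO 5, and the log2 difference was 0.05 ± 0.06 (SE), with an adjusted p of 0.854 by limma and an exact permutation p of 0.373. Its level is uncertain, since 46.1% of its windows are its own and 53.8% are shared with Pgk1-rs7, which was listed at 0. Pgam1, phosphoglycerate mutase, was at 157 TPM (parental), 143 and 147 TPM (clone 1) and 139.9 and 156 TPM (clone 2) in intact samples and at 176, 133, 142, 133 and 166 TPM in KO 1 to KO 5, and KO minus intact was 0.01 ± 0.08 in log2 (SE; limma, adjusted p = 0.994; exact permutation p = 0.921). Here 63.8% of the windows are its own and 36.2% occur in Pgam1-ps2. The KO clones spread more widely than the intact samples for Pgam1, with KO 1 highest and KO 4 lowest. Its difference was well within its SE, and its sign changed under median ratio scaling and quantile normalization, both of which moved the median of all genes from 0.02 to 0.00.

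Eno1, the main enolase, was at 435 TPM in the parental line, 453 and 466 TPM in intact clone 1, 427 and 450.5 TPM in intact clone 2, and 491, 463, 447, 418 and 501 TPM in KO 1 to KO 5, and the groups differed by 0.05 ± 0.05 in log2 (SE), for an exact permutation p of 0.341 and an adjusted p of 0.84 by limma. Eno1b, a near copy that holds 25.3% of the windows of Eno1, was at 84.9 to 109 TPM, and the sum of both gave a difference of 0.07 with an exact permutation p of 0.286. Eno2, the neuronal enolase, was at 1.39 to 2.84 TPM in intact and 1.20 to 3.53 TPM in KO samples. Pkm, which makes pyruvate and was the most abundant member, was at 1615 TPM (parental), 1644 and 1636 TPM (clone 1) and 1589 and 1675 TPM (clone 2) in intact samples and at 1833, 2219.8, 1599.5, 1559.7 and 1850.0 TPM in KO 1 to KO 5. KO 2 was far above all other samples, KO 1 and KO 5 were above the intact range, and KO 3 and KO 4 were in or below it. The log2 difference was 0.14 ± 0.09 (SE), with an adjusted p of 0.78 by limma and an exact permutation p of 0.159, and it was 0.06 without KO 2. Ldha was at 1035 TPM in the parental line, 1069 and 1092 TPM in intact clone 1, 989.7 and 1010.0 TPM in intact clone 2, and 977, 1061, 1050.0, 1059 and 1157 TPM in KO 1 to KO 5. KO 5 was highest and KO 1 lowest of the 10, and KO minus intact was 0.03 ± 0.06 in log2 (SE; limma, adjusted p = 0.93; exact permutation p = 0.571).

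Pyruvate dehydrogenase, the gate into the mitochondrial cycle, had no unadjusted p under 0.05 for either member subunit or for Pdk1, the member among its kinases. Pdhb, its beta subunit, was at 142 TPM (parental), 146 and 153 TPM (clone 1) and 146 and 144 TPM (clone 2) in intact samples and at 156, 155, 143, 144 and 148 TPM in KO 1 to KO 5. The groups overlapped. The groups differed by 0.03 ± 0.04 in log2 (SE), for an exact permutation p of 0.397 and an adjusted p of 0.898 by limma, and the sign changed under median ratio scaling but not under quantile normalization. Pdha1, the catalytic alpha subunit, was at 77.6 TPM in the parental line, 69.0 and 69.1 TPM in intact clone 1, 73.0 and 74.3 TPM in intact clone 2, and 93.2, 77.5, 73.2, 76.6 and 70.2 TPM in KO 1 to KO 5. KO 1 stood above the other 9 samples, and the log2 difference was 0.10 ± 0.07 (SE), with an adjusted p of 0.812 by limma and an exact permutation p of 0.214, and it was 0.03 without KO 1. Pdk1, a kinase that switches the complex off, was at 36.3 to 38.2 TPM in intact and 35.6 to 43.6 TPM in KO samples, and KO minus intact was 0.09 ± 0.06 in log2 (SE; limma, adjusted p = 0.783; exact permutation p = 0.175). Its relatives Pdk2 and Pdk3 are no members. Pdk2 was higher than Pdk1, at 86.1 ± 6.44 TPM in intact and 103 ± 20.2 TPM in KO samples (SD, n = 5 each). It differed by 0.23 ± 0.13 in log2 (SE; limma, adjusted p = 0.759; exact permutation p = 0.143). Pdk3 was at 42.9 ± 3.86 and 41.4 ± 6.48 TPM.

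In the pentose phosphate pathway, which makes NADPH and ribose, Tkt (transketolase) was the most abundant gene, at 298 TPM (parental), 345 and 349 TPM (clone 1) and 314 and 324 TPM (clone 2) in intact samples and at 334, 374, 355, 361 and 360.2 TPM in KO 1 to KO 5. KO 2 to KO 5 were above every intact sample and KO 1 lay between intact clone 2 and intact clone 1. The groups differed by 0.13 ± 0.05 in log2 (SE), for an exact permutation p of 0.0397 and an adjusted p of 0.674 by limma. G6pdx, the NADPH-forming entry enzyme, was at 70.2 TPM in the parental line, 72.3 and 71.4 TPM in intact clone 1, 66.9 and 68.3 TPM in intact clone 2, and 78.5, 57.7, 80.0, 78.9 and 76.3 TPM in KO 1 to KO 5. As with Hk1, 4 KO clones were above every intact sample and KO 2 was the lowest of the 10. The log2 difference was 0.08 ± 0.08 (SE), with an adjusted p of 0.849 by limma and an exact permutation p of 0.437. On leaving out single samples this difference was 0.05 to 0.17, with 0.17 without KO 2 (limma, adjusted p = 0.259). Pgd, the next NADPH-forming dehydrogenase, was at 88.4 to 102 TPM in intact and 79.6 to 104 TPM in KO samples. Taldo1 (transaldolase) was at 265 to 289 TPM in intact samples, while KO 1 and KO 2, at 301 and 304 TPM, were above them and KO 3 to KO 5, at 242, 254 and 248 TPM, were below.

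Hif1a was at 137 TPM (parental), 129 and 135 TPM (clone 1) and 143 and 136 TPM (clone 2) in intact samples and at 136, 160.2, 133, 145 and 136 TPM in KO 1 to KO 5, and KO minus intact was 0.06 ± 0.05 in log2 (SE; limma, adjusted p = 0.826; exact permutation p = 0.397). KO 2 was the only sample above the intact range by more than 2 TPM. Egln1, the main prolyl hydroxylase acting on Hif1a, was at 32.1 to 34.8 TPM in intact samples and from 30.4 TPM in KO 1 to 41.3 TPM in KO 2. Egln3, a hydroxylase that Hif1a itself induces, was at 8.01 to 11.9 TPM in intact samples and at 16.9 TPM in KO 2, with the other KO clones at 8.10 to 11.1 TPM. Vegfa, an angiogenic factor and a known Hif1a target, was at 49.0 TPM in the parental line, 35.4 and 39.6 TPM in intact clone 1, 44.8 and 45.7 TPM in intact clone 2, and 54.4, 24.9, 41.1, 51.5 and 41.1 TPM in KO 1 to KO 5. KO 1 was highest and KO 2 lowest, and the groups differed by -0.05 ± 0.19 in log2 (SE), for an exact permutation p of 0.865 and an adjusted p of 0.973 by limma. Bnip3, a mitophagy receptor induced in hypoxia, was at 40.7 to 47.9 TPM in intact and 40.1 to 49.3 TPM in KO samples.

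**Figure D4:**
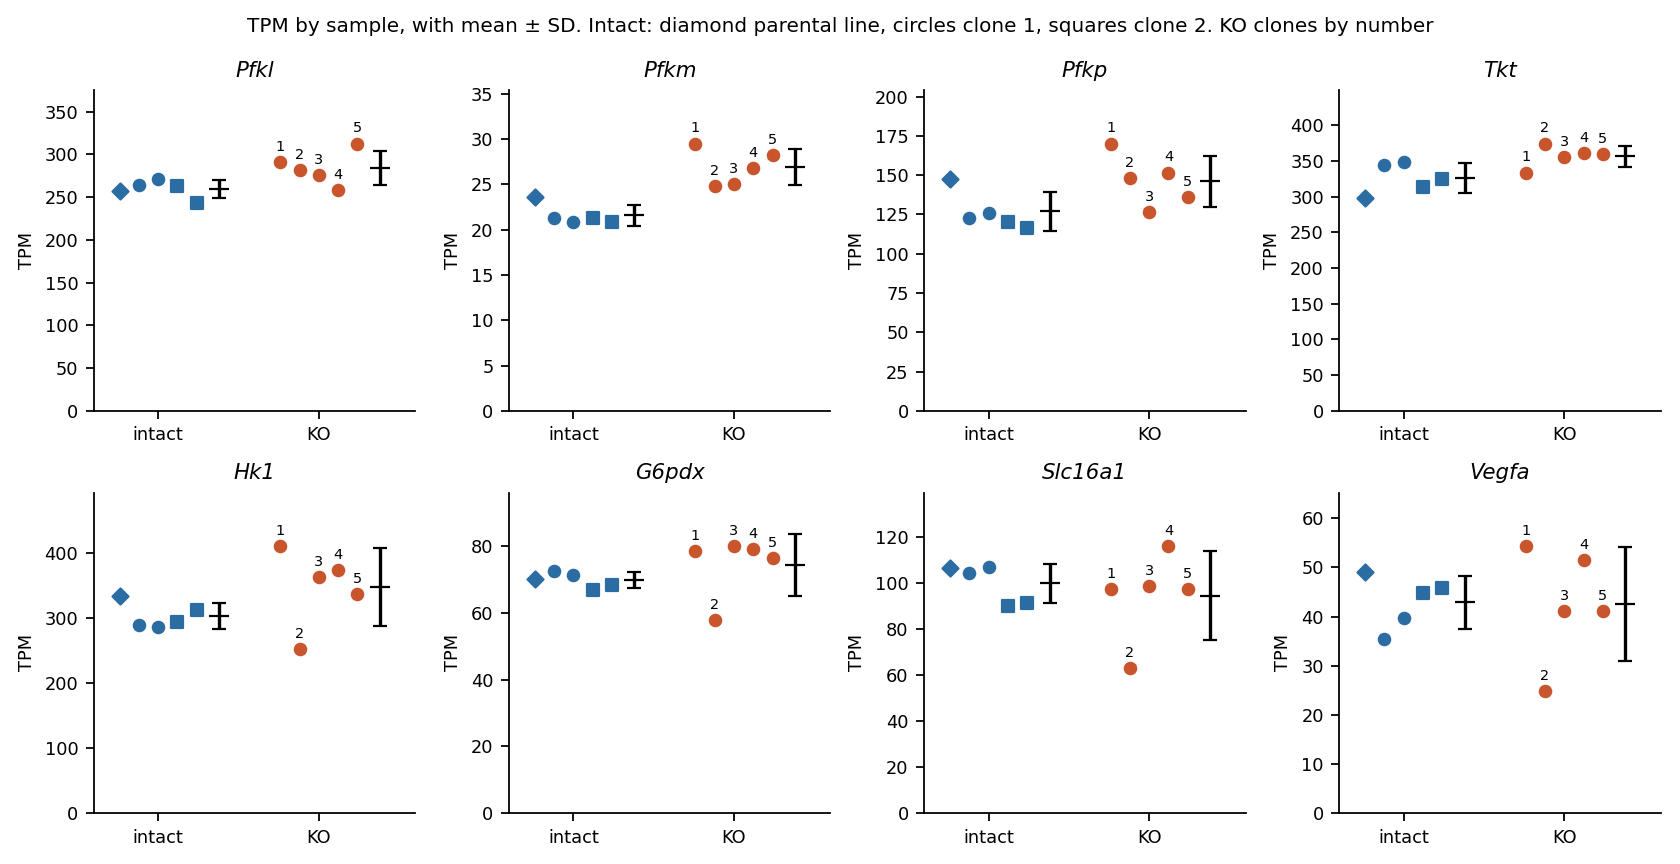
TPM of 8 members in each sample (vertical axes from 0), with intact samples in blue (diamond, parental line; circles, clone 1; squares, clone 2) and KO clones in orange with their number, and the mean ± SD (n = 5) in black. For Pfkm the lowest KO clone (24.8 TPM) is above the highest intact sample (23.6 TPM), and for Hk1, G6pdx, Slc16a1 and Vegfa KO 2 is the lowest of the 10 samples.

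The members were also compared among the 8 cell lines. The F-test of limma over the lines takes its spread from the 2 samples of each intact clone, and each KO clone, with 1 sample, was assumed to vary like them. It passed the adjusted threshold for 719 of 20000 genes (3.60%) and for 1 of 36 members, and at an unadjusted p under 0.05 for 28.7% of genes and 18 of 36 members. In the fit restricted to genes with a mean of at least 1 TPM, 36.5% of genes had such an unadjusted p. Of the 37 member entries 33 reach that mean. Over the 33 member entries with a mean of at least 1 TPM, the median range over the 8 lines was 0.40 on the log2(TPM + 1) scale, and it was 0.46 over all such genes.

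The 1 member was Slc16a1, the transporter that carries lactate and pyruvate across the membrane, at 107 TPM (parental), 104 and 107 TPM (clone 1) and 89.8 and 91.2 TPM (clone 2) in intact samples and at 97.3, 63.2, 98.5, 116 and 97.5 TPM in KO 1 to KO 5. Each pair of clone samples lay within 3 TPM, KO 4 was highest and KO 2 lowest, and the range over lines was 0.87 on the log2(TPM + 1) scale (limma, F = 124, adjusted p = 0.0401). The call rests on few samples: the adjusted p ran from 0.0164 to 0.179 over 20 alternatives, and it was 0.115 without KO 2, where the range fell to 0.35. Leaving out any sample of an intact clone took the number of genes called from 719 to 0. Between KO and intact, the log2 difference was -0.10 ± 0.14 (SE), with an adjusted p of 0.894 by limma and an exact permutation p of 0.675, and without KO 2 the sign turned to 0.04.

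The next members by the F-test were Pfkp (range 0.52, adjusted p = 0.0653), G6pdx (0.46, adjusted p = 0.0681) and Pdha1 (0.43, adjusted p = 0.0705). The range of G6pdx was 0.24 without KO 2 and that of Pdha1 was 0.16 without KO 1. Hk1 (0.70, adjusted p = 0.0796) and Pfkm (0.47, adjusted p = 0.0797) followed. Vegfa had the widest range of all members, 1.10, with adjusted p = 0.0897, and it is named for that range, seen after the values.

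KO 1 and KO 2, the clones of the exon 8 guide, were at opposite ends of the 10 samples in 6 of 33 member entries with a mean of at least 1 TPM (18.2%), against 11.6% of all genes with such a mean. Of the same 33 entries, KO 1 was the highest of the 10 samples in 15 and the lowest in 2, together 51.5%, against 33.2% of all such genes. KO 2 was the highest in 6 and the lowest in 8, together 42.4%, against 46.8% of all such genes. Slc2a1, Hk1, Pdk1, Pgd and Vegfa were highest in KO 1 and lowest in KO 2, and Egln1 was lowest in KO 1 and highest in KO 2. With both clones left out, 4 members were higher in KO at an unadjusted p under 0.05 (Pfkm, Tkt, Hk1 and G6pdx) and 1, Taldo1, was lower, against 5.13% and 2.98% of all genes, an alternative added after the values were seen.

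**Figure D5:**
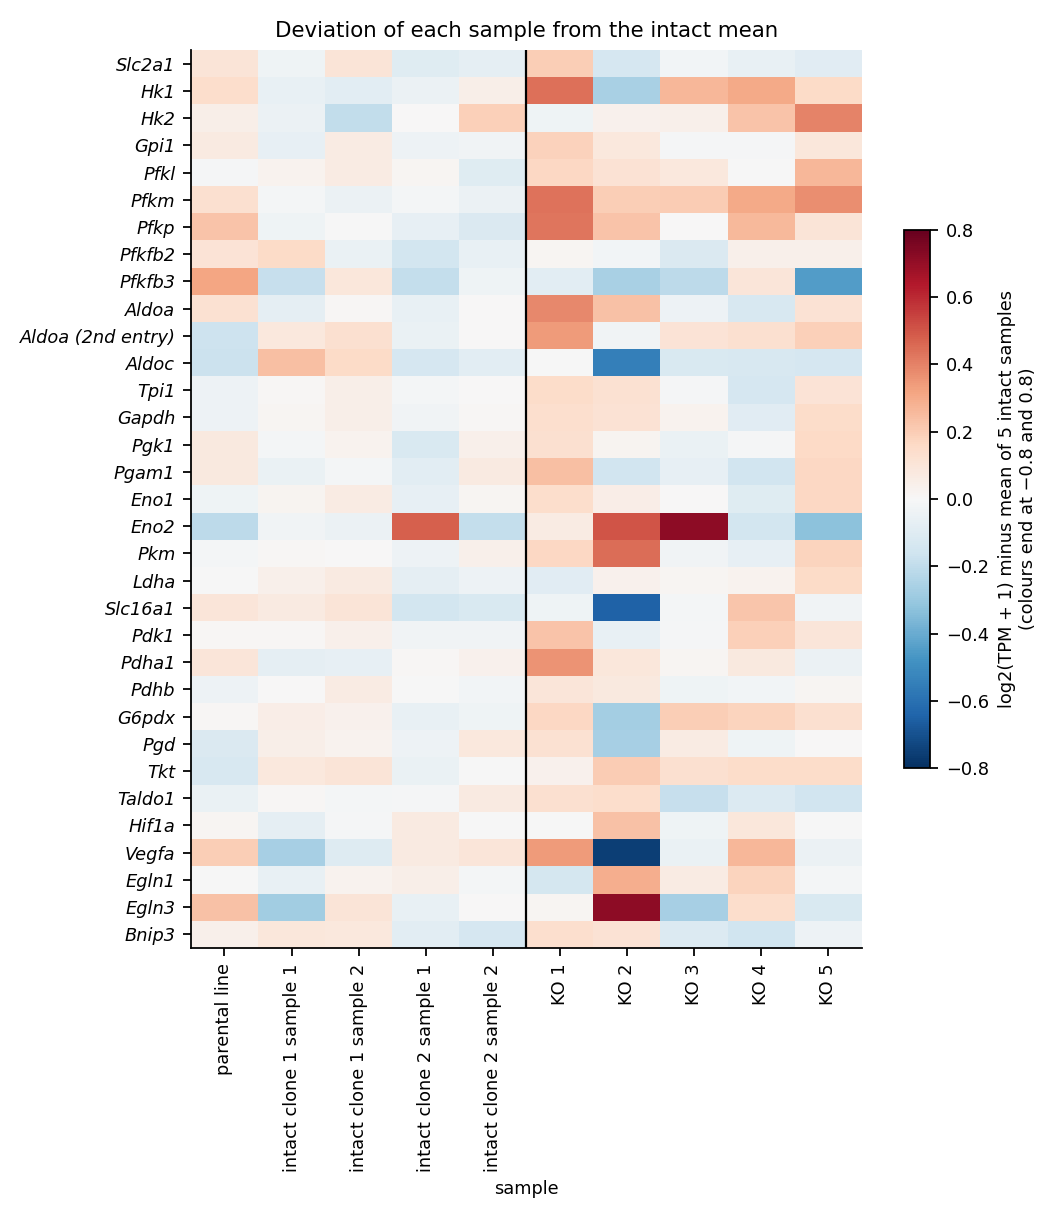
Deviation of each sample (columns; intact left of the line, KO right) from the mean of the 5 intact samples in log2(TPM + 1) (colour, ending at -0.8 and 0.8) for the 33 member entries with a mean of at least 1 TPM. Pfkm is above the intact mean in all 5 KO clones, and the column of KO 2 holds both the deepest blue (Vegfa, 24.9 TPM) and deep red (Egln3, 16.9 TPM).

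Genes of the same pathways that are no members were taken from lists of sugar transporters, other isozymes, gluconeogenesis, lactate handling, hypoxia and insulin response. Of 129 listed, 101 were tested, 6 were higher (4.53% of all genes) and 4 lower (2.46%) in KO at an unadjusted p under 0.05, and 0 passed the adjusted threshold (smallest adjusted p = 0.524), with 4 whose groups did not overlap, all with KO higher (1.20% of all genes). Akt2, the isoform of the insulin-responsive kinase most tied to glucose uptake, was at 63.6 TPM in the parental line, 58.5 and 56.7 TPM in intact clone 1, 59.5 and 63.6 TPM in intact clone 2, and 65.6, 74.7, 68.1, 65.8 and 67.9 TPM in KO 1 to KO 5. All KO clones were above all intact samples, and KO minus intact was 0.18 ± 0.05 in log2 (SE; limma, adjusted p = 0.524; exact permutation p = 0.00794). Akt1 was at 562 TPM (parental), 559 and 524 TPM (clone 1) and 531 and 522 TPM (clone 2) in intact samples and at 655, 618, 582, 566 and 576 TPM in KO 1 to KO 5, again without overlap, and the groups differed by 0.15 ± 0.05 in log2 (SE), for an exact permutation p of 0.00794 and an adjusted p of 0.607 by limma. Gckr, the regulator of glucokinase, was near 0 in all samples, at 0.14 TPM in the parental line, 0.05 and 0.16 TPM in intact clone 1, 0 (as listed) and 0.13 TPM in intact clone 2, and 0.36, 0.23, 0.34, 0.21 and 0.38 TPM in KO 1 to KO 5, and the log2 difference was 0.25 ± 0.07 (SE), with an adjusted p of 0.524 by limma and an exact permutation p of 0.00794. With other settings the log2 difference of Gckr was 0.22 to 1.11, the highest with a pseudocount of 0.1. The fourth was Adpgk, an ADP-dependent glucokinase, at 22.0 to 24.1 TPM in intact and 25.4 to 39.6 TPM in KO samples, with KO 2 highest. The 4 lower genes all overlapped between groups. Pygm, the muscle glycogen phosphorylase, was at 0.63 to 2.24 TPM in intact and 0.45 to 1.00 TPM in KO samples, a log2 difference of -0.47 (limma, adjusted p = 0.651). Prkaa2, a catalytic subunit of the energy-sensing kinase AMPK, was at 2.29 to 3.10 TPM and 0.46 to 3.83 TPM, with KO 2 the highest of all samples (log2 difference -0.68; limma, adjusted p = 0.667). Ldhd, the D-lactate dehydrogenase, was at 6.19 to 12.99 TPM and 4.43 to 9.15 TPM (-0.51 in log2; limma, adjusted p = 0.708), and Elob, elongin B, at 636 to 713 TPM and 525 to 649 TPM (-0.15; limma, adjusted p = 0.686).

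Txnip, which binds thioredoxin, lowers glucose uptake and rises with glucose, was the only one of these genes past the adjusted threshold of the F-test over lines. It was at 699 TPM (parental), 558 and 583 TPM (clone 1) and 698 and 678 TPM (clone 2) in intact samples and at 815, 359.8, 688, 672 and 684 TPM in KO 1 to KO 5. KO 1 was highest and KO 2 lowest, with a range of 1.18 on the log2(TPM + 1) scale (limma F-test, adjusted p = 0.0442, and 0.0121 to 0.201 over 20 alternatives, 0.123 without KO 2, where the range was 0.51). KO minus intact was -0.04 ± 0.19 in log2 (SE; limma, adjusted p = 0.978; exact permutation p = 0.865).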

How the data were processed

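RNA-seq was performed on full-length cDNA of 10 mpkCCD samples, sequenced as 50-base pairs. The authors deposited TPM for each gene, made with STAR and RSEM as the submitters' processing notes name them, with 1 column per sample (0 columns were left unused). The authors tested expected counts with edgeR, and expected counts were not used here, so TPM were tested on a log scale. Groups were taken from the sample labels, and the guide of each KO clone from the study's supplement.

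Genes were ranked by mean TPM, and the top 20000 were put on a log2(TPM + 1) scale and fitted with limma 3.58.1 (intensity trend) in R 4.3.3, with KO against intact on 5 against 5 samples and an F-test over 8 cell lines. P-values were adjusted by Benjamini-Hochberg over all 20000 genes with a threshold of 0.05. Differences on this scale understate changes of genes at low TPM. Single members were compared by a two-sided exact permutation test over 252 arrangements. Both limma fits were also run on simulated data in which each sample varied independently. Samples of the same line were not made alike there, so that run cannot show how the fits handle such likeness. Other calculations used Python 3.11.15, pandas 2.3.3, numpy 2.4.6 and matplotlib 3.10.9.

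The members and lists were chosen with earlier results of these data known. All members were named, and the values of every sample were given for the 8 members with the smallest p for KO against intact, the 6 with the smallest p over lines, the most abundant member of each step, and, from the other lists, the 3 genes with the smallest p and those past an adjusted threshold. Vegfa, Pfkfb3 and Adpgk are described in addition, as are some other genes of these pathways.

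Alternatives changed 1 choice at a time: a pseudocount of 0.1 or 0.5, a mean of at least 1 TPM, no filter, median ratio scaling, quantile normalization, limma with robust moderation or without the trend, an adjusted p under 0.1, 1 mean value for each line, a random effect of the line (statmod 1.5.0, consensus correlation 0.603) and leaving out each sample. Leaving out KO 1 and KO 2 together, and summing near copies, were added after seeing the data. Shared sequence was measured in 50-base windows of GENCODE M21 transcripts, an annotation other than the one the authors used. Promoter windows were those of RefSeq on GRCm38.p6, at the start nearest to the main GENCODE transcript start.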

Additional observations from a re-analysis of the deposited data

Results flagged for a closer look

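In 4 of the 74 groups of 5 samples examined, 1 sample stood apart from its group by Dixon's test at the 95% level, and chance flags about 1 in 20 such groups, which is 3.7 of 74. Pfkm was at 23.6 TPM in the parental line, above the other 4 intact samples, and still below every KO clone. Eno2, a low gene, was at 2.84 TPM in intact clone 2 sample 1, against 1.39 to 1.71 TPM in the other intact samples. KO 2 stood apart in both remaining groups, with Aldoc at 22.2 TPM against 29.9 to 32.8 TPM in the other KO clones and G6pdx at 57.7 TPM against 76.3 to 80.0 TPM.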

How the results depend on the processing

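No member passed the adjusted threshold for KO against intact under any alternative run, and the 14 member entries or other genes whose difference was followed kept their direction, except Slc16a1 (-0.10), at 0.04 without KO 2, 0.06 without KO 1 and KO 2, and -0.18 to 0.04 on leaving out single samples. Genes called for KO against intact were 1 and became 2 with a pseudocount of 0.1 (1 to 2 on leaving out single samples). Genes with an unadjusted p under 0.05 went from 1398 to 762 when each line gave 1 mean value and to 749 under a random effect of the line (1081 to 1604). Members at that level with KO higher went from 4 to 1 with median ratio scaling (Pfkm) and to 2 under those same settings (Pfkm and Tkt), and were 1 to 5 of 36 on leaving out single samples (3.37% to 5.28% of all genes), while members with KO lower went from 0 to 1 without KO 1 and KO 2. The members with KO higher stayed at 4 with quantile normalization (3.28% of all genes). Members with an exact permutation p under 0.05 were 3, and 1 to 5 on leaving out single samples (5.51% to 8.44% of all genes). Over the 8 lines, 719 genes were called, against 3448 with no filter, 452 without a trend, 1201 with robust moderation, 2687 at an adjusted p under 0.1, 217 without KO 1 and KO 2, and 0 to 812 on leaving out single samples, with 0 on leaving out either sample of an intact clone and 338 without KO 2. Members called went from 1 (3.60% of all genes) to 3 at a mean of at least 1 TPM (7.65%), 5 with no filter (13.2%), 4 with robust moderation (6.00%), 8 at an adjusted p under 0.1 (13.4%), and 0 without a trend (2.26%) or without KO 1 and KO 2 (1.08%; 0 to 1 on leaving out single samples), and those with an unadjusted p under 0.05 were 18, and 8 to 18 on leaving out single samples (22.4% to 29.7% of all genes). The cause of these shifts was not tested. Leaving out a sample also makes the comparison smaller. Where that sample is of an intact clone, it breaks a pair that gives the F-test its spread. No paired analysis was possible because the intact samples carry no number that ties them to a KO clone. TPM keep no depth, so the precision of low values such as those of Ldhb, Slc2a3 and Slc16a3 is unknown.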
